A study of Mus musculus with 13 samples.

Results

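Senescent mouse embryonic fibroblasts (MEFs) given Fucoidan-FV at 300 μg/mL were compared with the same cells given 100 μg/mL, to ask whether the higher dose changed transcription any further. The members of the comparison are the 6 libraries that the labels assign to these doses, 3 per dose from mice 4, 5 and 6, of 13 libraries in the series. All were wild-type (WT) MEFs sequenced as total RNA. The other libraries came from control MEFs (4 libraries, untreated and not senescent) and from senescent MEFs without Fucoidan-FV (3 libraries), again from mice 4, 5 and 6. The cells of the 3 senescent groups had all received etoposide, a topoisomerase II poison that breaks DNA, also those called untreated senescent cells (SnCs) below, which had no Fucoidan-FV. Each senescent group holds 1 library per mouse, and the labels give neither strain nor embryonic age.

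Fucoidans are sulfated polysaccharides of brown algae, here from Fucus vesiculosus, and their negative charge resembles that of heparin and heparan sulfate. They are known to bind heparin-binding growth factors, selectins and scavenger receptors at the cell surface. A response that runs through binding sites grows with dose until the sites are filled and then reaches a plateau. Senescent fibroblasts stay arrested through the cyclin-dependent kinase inhibitors p21 and p16, encoded by Cdkn1a and Cdkn2a, and release cytokines, proteases and growth factors known as the senescence-associated secretory phenotype (SASP).

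The 6 treated libraries held 22782536 to 29073857 expected counts each, and the 13 libraries held 22782536 to 31278750. The summed level of 12 fibroblast markers was 42886 to 52756 CPM (counts scaled to library size) at 100 μg/mL and 48610 to 52636 CPM at 300 μg/mL, whereas 12 macrophage markers summed to 7.45 to 17.0 CPM and 5.35 to 14.1 CPM. At 100 and 300 μg/mL, skeletal muscle markers summed to 94.5 to 150 and 69.3 to 122 CPM. Chondrocyte markers summed to 125 to 235 and 171 to 242 CPM, and epithelial markers to 51.7 to 70.4 and 55.1 to 78.5 CPM. Few genes made up most of these sums. By group mean, the muscle markers Des and Acta1 were at 84.8 and 38.5 CPM at 100 μg/mL and 61.8 and 30.5 at 300 μg/mL. The chondrocyte marker Col2a1 was at 142 and 179 CPM and the epithelial marker Dsp at 56.0 and 62.5. The muscle markers Myod1 and Pax7 and the epithelial markers Epcam and Krt5 were each under 1 CPM. None of the markers of 7 cell types that could be tested was called between the doses. For epithelium and for skeletal muscle only 5 of 12 markers were tested. In bulk RNA, fewer cells of a type and less RNA per cell cannot be told apart. Libraries also differed along a property of the gene models. In 1662 genes whose sequence lies over 95% in a single annotated transcript, the median log2 deviation from the mean of the 12 samples was 0.71, 0.80 and −0.22 at 100 μg/mL for mice 4, 5 and 6. At 300 μg/mL the same deviations were −0.76, 0.38 and 0.083, so mouse 4 stood low at the higher dose and high at the lower one. The cause was not tested. These genes had a median log2 difference between the doses (300 minus 100) of −0.72, against −0.16 once offsets for unique sequence, transcript length and GC content were added to the fit. Values with these offsets are given beside a number of results below.

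Raising the dose from 100 to 300 μg/mL changed 1 gene by the adjusted test. Of 15034 genes tested, 1 was a differentially expressed gene (DEG, adjusted p under 0.05 and a fold change over 2, edgeR quasi-likelihood test), which is 0.00665%. An unadjusted p under 0.05 was reached by 94 genes (0.625%), 60 higher and 34 lower at 300 μg/mL. If p-values were calibrated and no gene differed, a share of 0.05 would fall under that threshold. The share found was far smaller, so the test was conservative, and few calls do not show that the doses were equal. Against untreated SnCs, by the same test, there were 405 DEGs at 100 μg/mL (2.69% of the genes tested), of which 165 had risen (1.1%) and 240 had fallen (1.6%). At 300 μg/mL there were 246 DEGs (1.64%), with 113 raised (0.752%) and 133 lowered (0.885%). These counts share the untreated libraries, and they do not show that the doses differ, which is what the direct contrast tested. The root mean square log2 distance between a library at 100 and one at 300 μg/mL had a median of 0.57 (9 pairs, 0.37 to 0.98). Libraries of the same dose lay no nearer to each other, with a median of 0.69 within 100 μg/mL and 0.76 within 300 μg/mL (3 pairs each). Untreated libraries lay a median of 0.97 and 0.84 from those at 100 and 300 μg/mL. Among themselves the untreated libraries lay a median of 0.79 apart (3 pairs, 0.69 to 1.00). The distance to 300 μg/mL was thus little beyond the spread of the untreated libraries.

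The single DEG was Pif1, which encodes a DNA helicase that acts at telomeres and stalled replication forks. It lies on chromosome 9 at 65494442 to 65503249 (GRCm39). Expected counts of Pif1 were 31, 16 and 29 at 100 μg/mL in mice 4, 5 and 6, and 0 in each of the 3 libraries at 300 μg/mL. Untreated SnCs held 10, 18 and 19 counts and control MEFs 387, 764 and 332. All libraries at 300 μg/mL were therefore below all others, at levels that were already low in SnCs. With a floor of 3 counts over the group, Pif1 was at least 24.2-fold lower at 300 than at 100 μg/mL (adjusted p = 0.0399, edgeR). The call was lost in 8 of 9 fits that left out 1 library (adjusted p = 0.0643 to 0.248, edgeR), kept only without untreated mouse 4, and lost with the mouse as a block (adjusted p = 0.378, edgeR). It was also lost in a fit of only the 2 groups compared (adjusted p = 0.865, edgeR). Pif1 also counts among the genes that fell over both doses, described next, although at 100 μg/mL its level was not below that of untreated SnCs.

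Genes that rose with Fucoidan-FV changed, as a group, by as much at 100 as at 300 μg/mL. Genes that fell had a slightly smaller median change at 300 μg/mL. To choose responsive genes without using the difference between doses, the mean of both doses was compared with untreated SnCs. By this contrast 255 genes rose (1.7% of those tested) and 289 fell (1.92%), 544 in all (3.62%). The count was 238 without untreated mouse 6, 335 without mouse 6 at 300 μg/mL, and 360 and 362 without mice 4 and 5 at 100 μg/mL. By DESeq2 524 genes rose and 317 fell. In the genes that rose, the median log2 change from untreated SnCs was 1.83 at 100 μg/mL and 1.84 at 300 μg/mL, and in those that fell it was −1.50 and −1.38. The contrast chose these values, so they carry no test. The difference between doses was not part of the choice. Its median was 0.0081 in the genes that rose, with 128 above and 127 below 0, and 0.14 in those that fell, with 201 above and 88 below. Over all genes tested the median was 0.075, with 8664 above and 6369 below 0. From mouse to mouse the median of the genes that rose ran from 0.26 in mouse 4 and 0.040 in mouse 5 to −0.12 in mouse 6, so that its sign was not fixed. In the genes that fell it was 0.23, 0.064 and 0.044, against 0.19, 0.039 and 0.0016 over all genes.

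Set over the mean change, the difference between doses would be 1 in a gene whose log2 change was proportional to dose and 0 on a plateau. The median of this ratio was 0.0038 in the genes that rose (quartiles −0.11 and 0.091) and −0.10 in those that fell (quartiles −0.19 and 0.059). None of the 255 genes that rose reached an unadjusted p under 0.05 for the difference between doses, and 11 of the 289 that fell did, against 0.625% of all genes tested. Intervals show how far a further change can be bounded. The 95% interval of the difference lay within 2-fold either way for 108 of the genes that rose (42.4%) and for 166 of those that fell (57.4%), against 47.5% of all genes tested. With offsets the shares were 60.8%, 64.4% and 59.9%. For the remaining genes a further change of 2-fold was within the error. Without offsets, 59.7% of all genes under 40% unique sequence were bounded in this way, against 1.14% of those over 95%. Among responsive genes over 95% unique sequence, 1 of 18 that rose and 0 of 14 that fell were bounded.

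**Figure D1:**
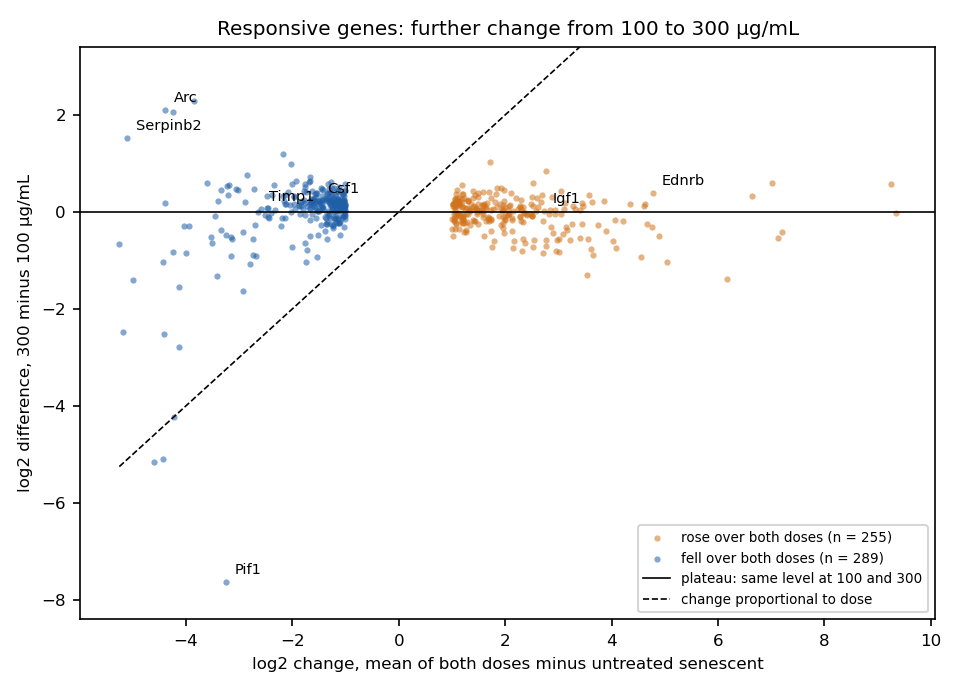
Each point is 1 of the 544 genes that rose (orange, 255) or fell (blue, 289) over both doses, with its mean log2 change from untreated SnCs on the x axis and the log2 difference between 300 and 100 μg/mL on the y axis. Points lie along the solid line at 0 (same level at both doses) and away from the dashed line (change proportional to dose), and Pif1 is the lowest point.

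Departure from dose proportionality was tested directly, as the log2 change at 300 μg/mL minus 3 times that at 100 μg/mL. At an adjusted p under 0.05, 76 genes departed from proportionality (0.506% of those tested), 75 of them with less change at 300 μg/mL than proportionality gives (0.499%). The exception was Pif1. A sign opposite to the mean change defines this direction, and both are computed from the same libraries. The count depended on the libraries: it was 5, 6 and 10 without mouse 4, 5 or 6 at 100 μg/mL, 39 and 27 without mouse 4 or 5 at 300 μg/mL, 25 and 13 without untreated mouse 4 or 5, and 41 with the mouse as a block. In each of these fits all the genes called took the same direction, which for the reason given is not separate evidence. Among the 75 were Csf1, Timp1 and Pgf, which encode secreted factors, the MAP kinase phosphatase genes Dusp1 and Dusp6, the actin-binding Tagln2 and Ankrd1 of muscle and stretch responses, and, among genes that rose, Ednrb, Adamts1, Col11a1 and the imprinted H19 and Mest.

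Csf1, Timp1 and Pgf are secreted factors that fell over both doses and whose libraries overlapped between the doses. Csf1, the macrophage colony-stimulating factor, measured 1696, 2103 and 1577 CPM in untreated SnCs of mice 4, 5 and 6, 625, 552 and 576 at 100 μg/mL and 857, 628 and 557 at 300 μg/mL. Treated and untreated libraries did not overlap, and the doses did. The log2 difference between doses was 0.22 (95% interval −0.19 to 0.63), and the test of proportionality gave an adjusted p of 0.0182 (edgeR). Timp1, an inhibitor of matrix metalloproteinases, measured 1139.9, 1179 and 2479 CPM untreated, 254, 229.8 and 298 at 100 μg/mL and 325, 244 and 242 at 300 μg/mL. Its difference was 0.053 (−0.52 to 0.63), where the doses again overlapped. Pgf, a placental growth factor of the VEGF family, had means of 30.4 ± 11.4 CPM untreated, 6.48 ± 0.563 at 100 μg/mL and 7.26 ± 1.74 at 300 μg/mL (SD, n = 3). It was not called between doses, at 0.16 (−0.55 to 0.87) on the log2 scale.

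Growth factors that rose were also at overlapping levels at both doses. Igf1, insulin-like growth factor 1, measured 5.43, 7.80 and 3.67 CPM in untreated SnCs, 26.7, 35.1 and 49.7 at 100 μg/mL and 25.5, 34.9 and 52.2 at 300 μg/mL. Within each mouse both doses gave nearly one value, and the difference was 0.014 (−0.91 to 0.93). Hgf, hepatocyte growth factor, had means of 8.73 ± 5.05, 35.7 ± 20.6 and 36.7 ± 12.8 CPM, a difference of 0.041 with the wide interval −1.16 to 1.25. Ednrb, an endothelin receptor, measured 0.128, 0.302 and 0.272 CPM untreated, 5.98, 5.26 and 5.67 at 100 μg/mL and 10.2, 5.90 and 5.97 at 300 μg/mL. Its difference was 0.38 (−0.62 to 1.39), with mouse 4 at 300 μg/mL the highest library. Bmp3, a bone morphogenetic protein, had no count in untreated SnCs, 1.47, 1.17 and 3.81 CPM at 100 μg/mL and 4.34, 2.31 and 3.03 at 300 μg/mL, a difference of 0.58 (−1.02 to 2.19). In the list of growth factors and receptors, 9 of 39 genes tested rose over both doses (against 1.7% of all genes tested) and 2 fell (against 1.92%). The median difference between doses was 0.014, and no member was a DEG between doses.

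**Figure D2:**
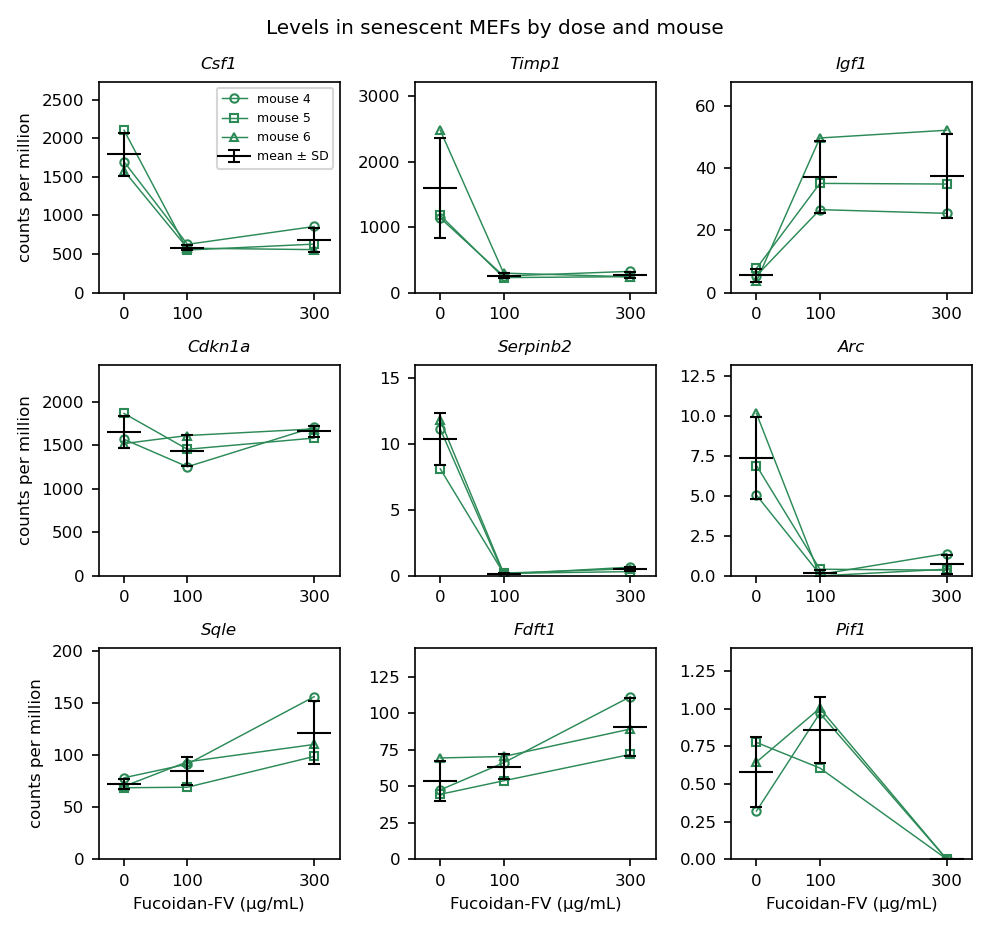
CPM of 9 genes in senescent MEFs against the dose of Fucoidan-FV in μg/mL, with 1 green line and symbol per mouse and black bars for the mean ± SD of 3 mice. Csf1, Timp1, Igf1, Serpinb2 and Arc at 100 μg/mL were already away from the untreated level, Cdkn1a overlapped across doses, Sqle and Fdft1 were higher at 300 than at 100 μg/mL in each mouse, and Pif1 was at 0 in the 3 libraries at 300 μg/mL.

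Arrest genes were not called between the doses. Cdkn1a measured 1569, 1866 and 1519.9 CPM untreated, 1254, 1455 and 1613 at 100 μg/mL and 1708, 1583 and 1688 at 300 μg/mL. The difference of 0.20 (−0.18 to 0.59) was in 1 direction in the 3 mice but failed the test (adjusted p = 0.970, edgeR). Cdkn2a had means of 248 ± 89.3, 178 ± 30.4 and 189 ± 12 CPM, a difference of 0.086 (−0.43 to 0.60). Lmnb1, the lamin B1 gene that is lost in senescence, differed by −0.52 (−1.59 to 0.55) and by −0.13 with offsets. For the inflammatory SASP genes Il6 and Ccl2 the differences were 0.36 (−1.25 to 1.96) and −0.04 (−0.79 to 0.70), and neither passed the test over both doses (adjusted p = 0.891 and 0.730, edgeR). Among 28 reference genes of senescence, SASP, growth factors and repair, none was a DEG between doses. Genes that senescence itself had changed, chosen on control and untreated senescent libraries alone, are given next. The median difference between doses was 0.13 in 672 genes that rose in senescence and 0.084 in 594 that fell, with 2 and 12 genes at an unadjusted p under 0.05, against 0.625% of all genes tested, and 1 DEG, Pif1.

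**Figure D3:**
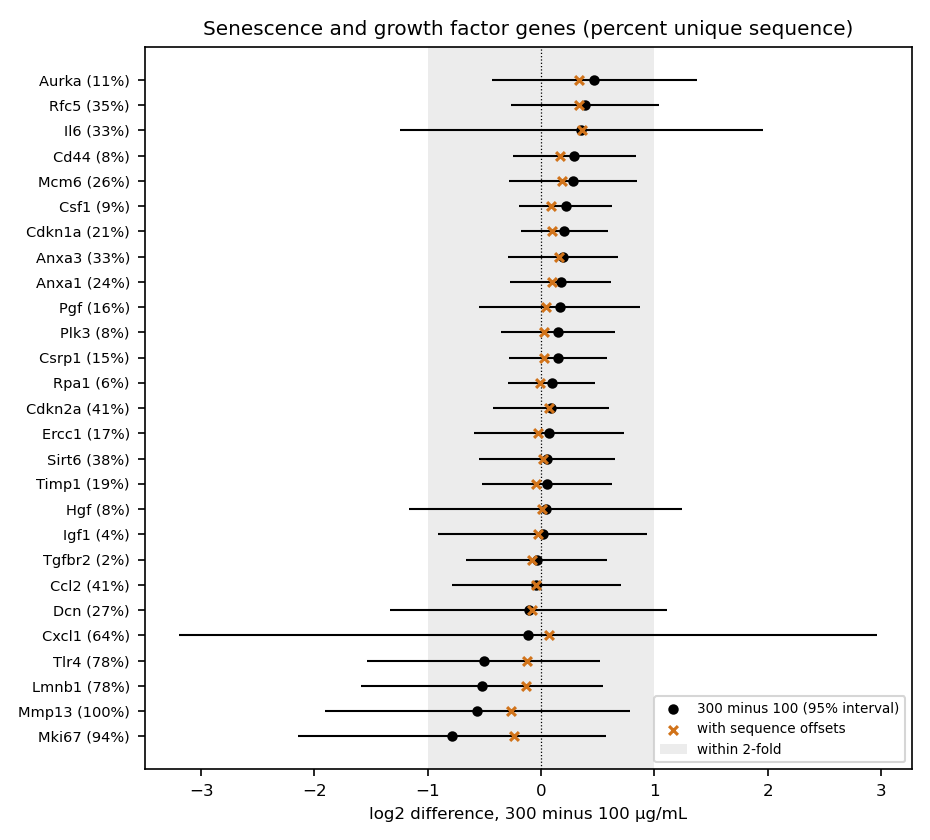
The log2 difference between 300 and 100 μg/mL (black points, with 95% intervals as lines) is plotted for 27 genes of senescence, growth factors and repair, with the percent of unique sequence after each name and orange crosses for the fit with sequence offsets. Every interval covers 0, and the grey band marks a difference within 2-fold.

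Across 26 lists of pathway genes, 675 of 710 genes were tested. Median differences between doses ran from −0.35 (mitosis and G2/M) to 0.32 (cholesterol synthesis), against 0.075 over all genes, and from −0.25 to 0.26 with offsets. In 23 lists the median was under 0.25 in size. Only 1 list held a DEG between doses, DNA replication with Pif1, which was placed in the list with earlier results of these libraries known. The interval lay within 2-fold for 364 of 675 members (53.9%, against 47.5% of all genes tested). Unadjusted p-values under 0.05 were reached by 8 members, against 0.625% of all genes tested, of which 7 are named in the text after their values were seen. The same sign of the median in the 3 mice was found in 10 lists.

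**Figure D4:**
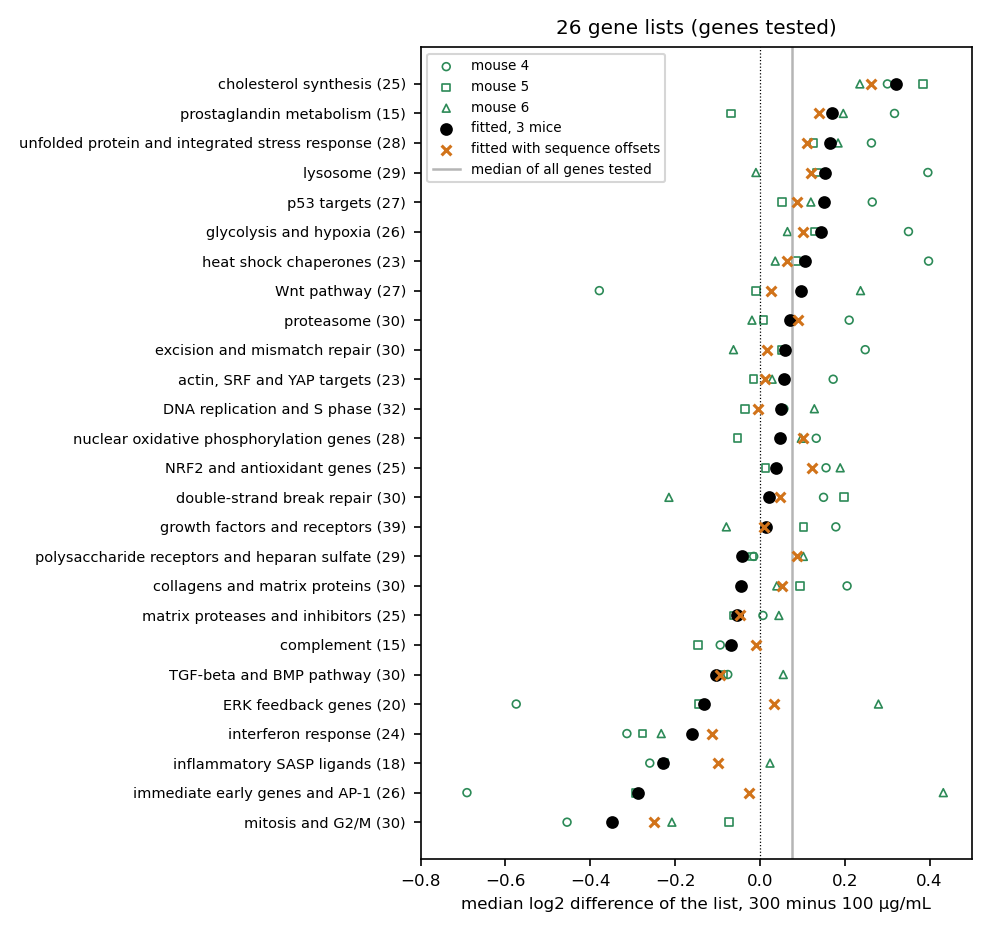
Each row is 1 of 26 gene lists with its number of genes tested, and the x axis is the median log2 difference between 300 and 100 μg/mL over its members. Black points are the fit over 3 mice, orange crosses the fit with sequence offsets, green symbols the single mice and the grey line the median of all genes tested (0.075), and the lists span −0.35 to 0.32.

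Cholesterol synthesis was the list that lay highest at the higher dose. It holds enzymes of the mevalonate and sterol pathway and the transcription factor gene Srebf2 with its regulators, which cells induce together when sterols run short. Of 25 members, 18 were higher at 300 than at 100 μg/mL and 7 lower, where 8664 of all 15034 genes tested were higher and 6369 lower. In 11 of 25 all libraries at 300 μg/mL lay above all at 100 μg/mL, against 5.1% of all genes tested, and in none did they lie below (2.45%). These shares were not split by unique sequence, of which the members had a median of 22.2%. Without offsets, the median difference was 0.16 over all genes under 40% unique sequence and −0.72 over those above 95%. The median difference was 0.30, 0.38 and 0.24 in mice 4, 5 and 6, and it ran from 0.22 to 0.37 with 1 library left out. No member was a DEG between doses. Over both doses 2 of the 25 members rose, Hsd17b7 and Stard4, against 1.7% of all genes tested. Senescence had lowered 12 of the 25 (DEGs of untreated SnCs against control MEFs, against 3.95% of all genes tested) and raised none (against 4.47%).

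Members of the list with an unadjusted p under 0.05 between doses included Sqle and Fdft1, which are described here because of that difference. Sqle, squalene epoxidase, measured 78.2, 68.6 and 70.0 CPM in untreated SnCs of mice 4, 5 and 6, 91.3, 69.1 and 93.5 at 100 μg/mL and 156, 98.7 and 110.2 at 300 μg/mL. The libraries at 300 μg/mL were the 3 highest, by 0.52 on the log2 scale over 100 μg/mL (0.092 to 0.95, adjusted p = 0.970, edgeR). Fdft1, squalene synthase, was at 66.0, 53.6 and 70.2 CPM at 100 μg/mL and 111, 71.7 and 89.1 at 300 μg/mL, a difference of 0.52 (0.046 to 0.99, adjusted p = 0.970, edgeR). The log2 changes of Sqle and Fdft1 from untreated SnCs were 0.23 and 0.24 at 100 μg/mL and 0.75 and 0.76 at 300 μg/mL. Both genes were chosen for their difference between doses, so the pairs are a description. The test of proportionality had adjusted p-values of 0.968 and 0.981 (edgeR), which does not show that their change was proportional to dose.

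Intervals covered 0 for Srebf2 and Pmvk. Srebf2, which encodes the factor that drives sterol genes, had means of 97 ± 3.92, 125 ± 11.9 and 151 ± 10.9 CPM (untreated, 100 and 300 μg/mL, n = 3) and differed by 0.26 between doses (−0.059 to 0.59). Pmvk, phosphomevalonate kinase, differed by 0.73 (−0.23 to 1.70). Insig1 and Cyp51, which are 86.7% and 74.0% unique sequence, had differences of −0.42 and −0.27. With offsets they were 0.10 and 0.067, and 23 of the 25 members then lay above 0. In a fit of only the genes under 40% unique sequence, 13 members lay above 0 and 1 below. Some other lists also lay to 1 side in that fit. The unfolded protein and integrated stress response had 11 above and 1 below, and the lysosome 15 and 2. Actin, SRF and YAP targets had 3 above and 13 below.

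Sterol genes are controlled through the sterol regulatory element, so the 250 bases before the start of transcription were searched for TCACNCCAC on both strands in the RefSeq promoters of GRCm38.p6. Promoters of members on 1 chromosome were left out, but the share over all promoters includes that chromosome. With that, promoters were searched for 17 of the 25 members (20 promoters). These letters occurred in 1 of them, that of Hmgcs1, against 1.05% of 32851 promoters. A match is a description of letters, and the lack of an exact match does not show that a promoter lacks the element. Sqle and Fdft1 had no entry. Hmgcs1, a synthase of the mevalonate pathway, measured 96.0, 113 and 77.6 CPM untreated, 128, 106 and 143 at 100 μg/mL and 169, 138 and 180.2 at 300 μg/mL. It was higher at 300 μg/mL in each mouse although the groups overlapped, with a difference of 0.37 (−0.06 to 0.81, adjusted p = 0.970, edgeR). Its promoter (chr13:119690101-119690350 of GRCm38.p6, plus strand) is shown because it holds the searched letters, in capitals, with the first base 137 before the start:
Hmgcs1: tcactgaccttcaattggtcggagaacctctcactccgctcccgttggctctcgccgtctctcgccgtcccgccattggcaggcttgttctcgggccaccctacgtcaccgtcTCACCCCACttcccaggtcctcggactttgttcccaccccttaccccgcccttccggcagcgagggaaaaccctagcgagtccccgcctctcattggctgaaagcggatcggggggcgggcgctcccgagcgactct

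Mitotic genes lay lowest at the higher dose. In 30 genes of mitosis and G2/M, 19 were lower and 11 higher at 300 than at 100 μg/mL, with a median of −0.35 and of −0.45, −0.074 and −0.21 in mice 4, 5 and 6. Senescence had lowered all 30 of them (DEGs of untreated SnCs against control MEFs, against 3.95% of all genes tested). The median was −0.032 without mouse 6 at 100 μg/mL and −0.80 without mouse 6 at 300 μg/mL, and it was 0.15 over the members under 40% unique sequence, 9 higher and 3 lower. The direction of the list was therefore not stable. Top2a, topoisomerase IIα, measured 6.04, 2.69 and 5.64 CPM at 100 μg/mL and 0.775, 1.60 and 3.36 at 300 μg/mL, where the groups overlapped (−1.33, −2.52 to −0.14, adjusted p = 0.970, edgeR). The ubiquitin-conjugating enzyme Ube2c differed by −1.55 (−3.10 to 0.00076). Over both doses 4 of the 30 mitotic genes fell, against 1.92% of all genes tested. Among them was Aurka, the Aurora A kinase, at 8.85 ± 3.03 CPM untreated, 3.02 ± 0.474 at 100 μg/mL and 4.20 ± 2.45 at 300 μg/mL. In 32 genes of DNA replication 6 fell over both doses (against 1.92% of all genes tested), and the median difference between doses was 0.049. Rpa1, the large subunit of the single-strand binding protein RPA, had a difference of 0.094 (−0.29 to 0.48).

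DNA repair lists had medians close to 0 between doses. The median was 0.022 in 30 genes of double-strand break repair, of which 15 were higher and 15 lower, and 0.059 in 30 genes of excision and mismatch repair, 18 higher and 12 lower. No member was a DEG between doses. Ercc1, an excision nuclease subunit, was the single member of both lists that fell over both doses. Of all genes tested 1.92% fell, so 1 such gene is no result about the lists. Ercc1 differed by 0.068 between doses (−0.59 to 0.73). Ercc4, its partner, measured 24.8, 23.9 and 26.5 CPM at 100 μg/mL and 54.0, 27.0 and 30.4 at 300 μg/mL. The groups did not overlap, and mouse 4 was far above the others, at a difference of 0.57 (−0.039 to 1.17). Sirt6, a deacylase in repair, differed by 0.054 (−0.55 to 0.65). For 27 targets of p53 the median was 0.15, and 0.087 with offsets.

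Immediate early and ERK feedback genes follow growth factor signalling. Over both doses 7 of 26 immediate early and AP-1 genes and 8 of 20 ERK feedback genes fell (against 1.92% of all genes tested), and none rose (against 1.7%). Dusp6, the phosphatase that limits ERK, measured 54.7, 64.1 and 62.2 CPM untreated, 11.4, 8.33 and 11.9 at 100 μg/mL and 11.4, 9.78 and 12.3 at 300 μg/mL, with a difference of 0.084 between doses (−0.42 to 0.58). The libraries of both doses lay together, far below those of untreated SnCs. Arc, an activity-regulated gene, held 158, 160 and 299 counts untreated, 3, 11 and 0 at 100 μg/mL and 36, 10 and 10 at 300 μg/mL. The doses overlapped, and both lay far below untreated SnCs (difference between doses 2.09, 0.18 to 4.00, adjusted p = 0.970, edgeR). Klf10, an early TGF-β response gene, measured 47.5, 41.4 and 35.9 CPM untreated, 12.5, 11.2 and 17.7 at 100 μg/mL and 29.1, 16.1 and 18.4 at 300 μg/mL. The doses overlapped, and the difference that Klf10 was picked for was 0.62 (0.064 to 1.18, adjusted p = 0.970, edgeR). The list medians between doses were −0.29 and −0.13, and −0.026 and 0.034 with offsets. In the 12 immediate early genes under 40% unique sequence it was 0.11. Jun, which is 100.0% unique sequence, had 35.1, 41.9 and 12.1 CPM at 100 μg/mL and 5.62, 24.8 and 18.9 at 300 μg/mL, a difference of −0.85 and, with offsets, −0.29.

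Matrix genes had moved in both directions at the lower dose. Of 30 collagens and matrix proteins 9 rose over both doses (against 1.7% of all genes tested), and of 25 proteases and inhibitors 4 rose and 5 fell (against 1.92%). The median difference between doses was −0.054 for proteases and inhibitors. For collagens and matrix proteins it had no fixed sign, at −0.046 in the fit over 3 mice, 0.051 with offsets, and 0.21, 0.094 and 0.040 in mice 4, 5 and 6. Eln, elastin, measured 36.6, 49.3 and 71.9 CPM untreated, 139, 141 and 311 at 100 μg/mL and 177, 183 and 418 at 300 μg/mL. It was higher at 300 μg/mL in each mouse, within the spread between mice (0.40, −0.55 to 1.34). Col11a1, a fibrillar collagen chain, differed by 0.062 (−0.68 to 0.81), and the small proteoglycan Dcn by −0.11 (−1.34 to 1.12). The aggrecanase Adamts1 had means of 97.9 ± 56.4, 766 ± 72.5 and 738 ± 78.0 CPM and a difference of −0.054 (−0.90 to 0.79). Adamts5, Ogn and Mmp13 are 100.0% unique sequence. Adamts5, an aggrecanase as well, measured 505, 487 and 195 CPM at 100 μg/mL and 94.6, 322 and 252 at 300 μg/mL, with −0.83 and, with offsets, −0.15. Ogn, osteoglycin, was at −0.69 and −0.21, and the collagenase Mmp13 at −0.56 and −0.26. In these 3 genes mouse 4 at 300 μg/mL was the lowest treated library.

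Genes with the largest responses to Fucoidan-FV were likewise not called between doses. Among the 8 with the largest rise over both doses were Bmp3, Ednrb, the flavin monooxygenase gene Fmo1, the sodium channel gene Scn7a, the protease inhibitor gene Serpinb1a, the receptor gene Vipr2 and Necab1. The log2 differences of the 8 between doses ran from −1.40 for Fmo1 to 0.58 for Bmp3. Serpinb1a was by far the most abundant of them, at 2.49, 1.68 and 1.97 CPM untreated, 32.5, 24.5 and 129 at 100 μg/mL and 32.8, 16.5 and 101 at 300 μg/mL. Its libraries lay well above the untreated ones at either dose, with a difference of −0.31 (−1.76 to 1.14). The 8 with the largest fall were Serpinb2, Arc, Lce1h, Vmn2r79, Gm32255, Stra6, Cacng8 and Gm50394, all under 1 CPM at both doses, at −2.47 for Lce1h (−1.86 with offsets) to 2.09 for Arc.

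Serpinb2, plasminogen activator inhibitor 2, was, after Pif1, the responsive gene with the smallest unadjusted p between doses. It held 348, 188 and 347 counts untreated, 4, 5 and 6 at 100 μg/mL and 17, 9 and 13 at 300 μg/mL. Every library at 300 μg/mL was above every one at 100 μg/mL, and both doses were far below untreated SnCs. The difference was 1.52 (0.46 to 2.58, adjusted p = 0.970, edgeR), against a log2 change of −5.87 at 100 μg/mL and −4.35 at 300 μg/mL from untreated SnCs. Serpinb2 was chosen by this difference, so its values are a description. In all, 15 of the 289 genes that fell had all libraries at 300 μg/mL above those at 100 μg/mL (5.19%, against 5.1% of all genes tested), and 6 had them below (2.08%, against 2.45%). Among the 255 genes that rose the numbers were 4 (1.57%) and 7 (2.75%), and over all genes 7.54% had groups without overlap.

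Targets of the actin cytoskeleton, Wnt and TGF-β responded without a call between doses. Of 23 actin, SRF and YAP targets 8 fell over both doses, against 1.92% of all genes tested. Their median difference between doses was 0.057, with all but 2 intervals within 2-fold. Tagln2, transgelin 2, had means of 251 ± 117, 61.1 ± 8.63 and 61.4 ± 9.07 CPM and a difference of 0.0061 (−0.57 to 0.58). In the Wnt pathway 3 of 27 genes rose over both doses (against 1.7% of all genes tested) and 2 fell (against 1.92%). Axin2 and Lef1, which Wnt signalling induces, were the members that fell. Lef1 measured 17.3, 23.6 and 13.9 CPM untreated, 4.70, 3.71 and 2.7 at 100 μg/mL and 7.52, 5.55 and 3.48 at 300 μg/mL, a difference of 0.58 (−0.24 to 1.39), and Axin2 differed by 0.53 (−0.87 to 1.93). Of 30 genes of the TGF-β and BMP pathway 2 rose and 3 fell, against the same shares of all genes tested. Tgfbr2, the type II TGF-β receptor, had means of 107 ± 38.8, 229.7 ± 77.6 and 224 ± 45.8 CPM and a difference of −0.038 (−0.66 to 0.58).

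Receptors that can bind polysaccharides, with heparan sulfate proteoglycans and their enzymes, were not called between doses. The median difference was −0.043 in 29 genes tested of 30. Over both doses Gpc3, a glypican, rose and Cd44 fell, where 1.7% of all genes tested rose and 1.92% fell. Cd44, the hyaluronan receptor, measured 1201, 1027 and 709 CPM untreated, 392, 321 and 315 at 100 μg/mL and 576, 389.8 and 295 at 300 μg/mL, a difference of 0.29 (−0.25 to 0.84). Per length, in TPM, the syndecan gene Sdc1 was at 168 ± 9.64 untreated, 227 ± 6.10 at 100 μg/mL and 227 ± 4.26 at 300 μg/mL (SD, n = 3). Tlr4, which senses lipopolysaccharide, measured 11.2, 11.5 and 9.27 CPM at 100 μg/mL and 6.48, 8.61 and 7.47 at 300 μg/mL, lower in every library (−0.51, −1.53 to 0.52). Tlr4 is 77.6% unique sequence and stood at −0.12 with offsets, and the cause of this shift was not tested. Tlr3, which senses double-stranded RNA, measured 9.95, 9.84 and 15.7 and 24.1, 12.2 and 15.9 CPM, with overlap (0.56, −0.37 to 1.48).

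Lists of inflammatory ligands, interferon response, complement and prostaglandin metabolism held no DEG between doses. Of 28 inflammatory SASP ligands 18 were tested. Over both doses Cxcl5, a neutrophil chemokine, rose and Csf1 fell, where 1.7% of all genes tested rose and 1.92% fell. The median log2 change of the ligands from untreated SnCs was 1.00 at 100 μg/mL and 0.29 at 300 μg/mL. Between doses 5 ligands lay above 0 and 13 below, with a median difference of −0.23, of −0.10 with offsets and of 0.0036 in the 9 members under 40% unique sequence. Of 24 interferon response genes 9 lay above 0 and 15 below. Their median was −0.16, and −0.31, −0.28 and −0.23 in mice 4, 5 and 6, but 0.088 without mouse 6 at 100 μg/mL. In 3 of them all libraries at 300 μg/mL were below those at 100 μg/mL, against 2.45% of all genes tested. Ifit3, an interferon-induced gene, measured 2.97, 2.80 and 1.66 CPM at 100 μg/mL and 0.271, 1.71 and 1.53 at 300 μg/mL (−1.08, −2.61 to 0.46, and −0.71 with offsets). No interferon gene responded over both doses, 3 of 15 complement genes rose, and 1 of 15 prostaglandin genes rose and 1 fell. The shares over all genes tested are those given above for the ligands. The medians between doses were −0.068 for complement and 0.17 for prostaglandin metabolism.

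Genes of energy metabolism, stress and protein turnover held no DEG between doses. The interval of the difference lay within 2-fold for 47.5% of all genes tested, and for 26 of 30 proteasome genes, 24 of 28 nuclear genes of oxidative phosphorylation, 23 of 29 lysosomal genes, 22 of 26 genes of glycolysis and hypoxia and 21 of 28 genes of the unfolded protein and integrated stress response. Their medians were 0.07, 0.047, 0.15, 0.15 and 0.16, and 0.10 for oxidative phosphorylation with offsets. In the stress response, 5 of 28 genes did not overlap and were higher at 300 μg/mL (against 5.1% of all genes tested), none lower (against 2.45%). One was Asns, asparagine synthetase, a target of ATF4, at 169.8, 196 and 262 CPM untreated, 111, 104 and 108 at 100 μg/mL and 174, 122 and 123 at 300 μg/mL (0.37, −0.046 to 0.79). The co-chaperone gene Ahsa1 was at 73.1, 66.3 and 69.3 and 102, 74.8 and 90.6 CPM (0.36, −0.048 to 0.76). Medians of 23 heat shock chaperones and 25 NRF2 and antioxidant genes were 0.11 and 0.039, the latter 0.12 with offsets.

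The largest differences between doses over all genes were in genes of low level. At 300 μg/mL 16.4% of all genes were higher in each of the 3 mice and 9.05% lower in each. Of those with an unadjusted p under 0.05 and at least 1 CPM in the higher group, 46 lay above 0 and 8 below. The 8 with the largest increase were Rfx2, Serpina3h, Ryr1, Gm21983, Gm7332, Gm3362, Zfp968-ps and 2900052L18Rik, at log2 differences of 1.40 to 3.46, all with mean levels under 10 CPM. The counts of Serpina3h were 9, 1 and 0 at 100 μg/mL and 62, 5 and 21 at 300 μg/mL, so that the doses overlapped. The 8 lower genes were Gm44777, Lmo1, Cenpu, Tmem265, Shcbp1, Top2a, Bcam and Tada2b, at −4.22 to −0.56. Bcam, a laminin receptor, measured 12, 12.3 and 8.82 CPM at 100 μg/mL and 5.08, 6.93 and 5.31 at 300 μg/mL, without overlap (−0.94, −1.75 to −0.12, −0.90 with offsets). Cenpu, a centromere protein, measured 1.28, 1.36 and 1.63 and 0.00, 0.462 and 0.415 CPM, also without overlap (−2.26, −4.06 to −0.47). These genes were chosen by the contrast itself, so the values are a description. None of the 16 passed the adjusted test (adjusted p = 0.970 for Bcam and for Cenpu 0.970, edgeR).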

How the data were processed

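RNA of WT MEFs was sequenced by the authors from TruSeq Stranded Total RNA libraries. Reads were aligned to GRCm39, with STAR 2.7.11b and RSEM 1.3.1 named in the submitters' processing notes. The authors deposited expected counts per gene, not normalized, and TPM values, which RSEM scales for length and depth and which were used here only to describe levels. Whether reads were counted by strand is not given in the sources used here, so antisense pairs cannot be told apart. Expected counts were rounded, and the libraries 5(1) and 5(2) of control mouse 5 were summed, which gave 12 samples in 4 groups of 3 mice. Of 57010 genes listed, 15034 passed filterByExpr (minimum count 10, total 15).

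Differences were tested with edgeR 4.0.16 in R 4.3.3 (quasi-likelihood test, TMM factors, 1 fit over all groups, Benjamini-Hochberg adjustment over all genes tested). A DEG needed both an adjusted p below 0.05 and a log2 difference beyond 1 in size. The contrasts were 300 against 100 μg/mL, each dose and their mean against untreated SnCs, and the departure from proportionality to dose. Intervals of 95% were the log2 fold change ± t times its Wald standard error. CPM values use TMM-scaled library sizes, and values per mouse are differences of log2(CPM + 0.5). The p-values rest on the spread within the 4 groups, estimated over all groups together and drawn toward a common trend across genes. They do not measure the spread at the 2 doses alone. With no more than 3 mice per dose, a permutation test over samples could not go below 0.1. The fits were tested on simulated data.

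The members, gene lists and tests were chosen with earlier results of these data known. Genes were named by a rule: DEGs between doses, the 8 largest differences each way at an unadjusted p under 0.05 with 1 direction in 3 mice and at least 1 CPM, the 8 largest responses to both doses each way, 28 reference genes, and the highest and lowest member of each list. Further list members were picked after their values were seen. Some genes that the rule names are not reported here. Samples with the same mouse number come from 1 animal by the labels, and the mouse entered as a block in an alternative fit only. Deviations of same-mouse samples from their group means correlated at −0.33 to 0.60, over 9 pairs. Replicates of 1 dose differed beyond counting error (chi-square per gene 11.4 to 107). Unique sequence is the share of 150-base windows of a gene's transcripts found in 1 annotated transcript. Offsets were fitted by a smooth curve per library on unique sequence, length and GC (mgcv 1.9.3). Alternatives were DESeq2 1.42.0, RLE factors, other filters, fewer groups, the mouse as a block, the offsets, the deposited table of all libraries and each senescent library left out. The offsets with the block, and genes under 40% unique sequence alone, were added after seeing the data.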

Additional observations from a re-analysis of the deposited data

How the results depend on the processing

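The number of DEGs between doses was 1 with DESeq2, RLE factors, the offsets, the table of all libraries, genes under 40% unique sequence and adjusted p alone, in each case Pif1. It was 2 with no filter on low counts (Pif1 and Gm44777), and 0 with at least 10 counts in every sample, with only the 3 senescent groups, with only the 2 groups compared, with the mouse as a replicate block, and with offsets and block together. With 1 library left out it was 0 to 1. Where it was 0, 47, 67, 162, 86 and 187 genes had an unadjusted p under 0.05 in the 5 fits in that order (edgeR), and 140 did by DESeq2. The mean of both doses gave 841 DEGs with DESeq2, 848 with no filter, 1049 with adjusted p alone and 238 to 544 with 1 library left out. Departures from proportionality numbered 440 with DESeq2, 33 with RLE factors, 624 with no filter, 41 with the replicate block, 342 with offsets, 436 with offsets and block, 118 in genes under 40% unique sequence and 5 to 67 with 1 library left out. At most 2 per fit changed more than in proportion to dose, a direction that the contrasts themselves make rare. The median difference between doses of the responsive genes was −0.11 to 0.24 for those that rose and 0.030 to 0.17 for those that fell, with 1 library left out. For those that fell it was 2.2e-07 with no filter and 0.014 in genes under 40% unique sequence. The cause of these changes was not tested. The median over all genes was 0.075 with TMM and 0.0052 with RLE factors. Among named genes the block ended the call of Pif1 and changed no other call. Of 286 list medians under alternatives, 234 moved by less than 1 SD between mice. Depth limits genes under about 1 CPM, where intervals span several fold. Intervals were also wide in genes over 95% unique sequence, of which 1.14% had an interval within 2-fold in the main fit.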
